A study of Arabidopsis thaliana with 11 samples.

Results

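Transcript levels of 7 jasmonate output genes were described in untreated 10-day-old seedlings of Arabidopsis thaliana, taken whole. The genes were VSP1, VSP2 and CORI3, which belong to the wound-inducible storage protein and cystine lyase branch, and TPS04, CYP82G1, TPS03 and TPS10, which belong to the volatile terpene branch. They were taken by locus, and their normalised levels over the 4 genotypes were known when they were chosen, so levels and fold changes of these genes are a description without a test. Of the 7 genes, 6 are among the 22160 genes of the count table, and those 6 are among the 21580 that were tested. TPS10 was read from the transcript table alone.

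The 4 genotypes were the xpo4-2 cpr5 double mutant, which carries both mutations (n = 3 libraries), the single mutants xpo4-2 (n = 2) and cpr5 (n = 3), and Col-0 as wild type (n = 3). Seedlings of every genotype grew on half-strength medium with sucrose, and strand-specific mRNA libraries were sequenced. The product of XPO4 is exportin-4, which carries cargo through nuclear pores, and CPR5 encodes a nuclear pore protein anchored in the membrane, whose loss is known for constitutive salicylic acid defence. No label says that the libraries of a genotype came from separate sowings. The p-values therefore reflect spread among these libraries alone, which may be technical.

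Jasmonate is a lipid-derived hormone made by lipoxygenases, allene oxide synthase and allene oxide cyclases from plastid fatty acids. Its conjugate with isoleucine is read by the receptor COI1, which sends the JAZ repressors to degradation and so frees MYC transcription factors to switch on output genes. In Arabidopsis shoots these outputs include vegetative storage proteins with an acid phosphatase fold, amino acid lyases and volatile terpenes released after feeding by insects. Jasmonate and salicylic acid outputs are known to restrain each other in leaves.

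VSP1 (AT5G24780) lies on chromosome 5 at 8507590 to 8509201 and VSP2 (AT5G24770) at 8500468 to 8502224, both on the minus strand of TAIR10.1. They are 5365 bases apart, with 1 small gene, AT5G24775, between them. CORI3 (AT4G23600), a coronatine-induced cystine lyase, lies on chromosome 4 at 12310379 to 12313212. TPS04 (AT1G61120), the geranyllinalool synthase, lies on chromosome 1 at 22523635 to 22528836. CYP82G1 (AT3G25180), the cytochrome P450 that turns geranyllinalool into the homoterpene TMTT, lies on chromosome 3 at 9167138 to 9169301. TPS03 (AT4G16740), an ocimene and farnesene synthase, lies on chromosome 4 at 9407611 to 9411140. TPS10 (AT2G24210), a myrcene and ocimene synthase, lies on chromosome 2 at 10294286 to 10297597. None of the 7 genes overlaps another annotated gene.

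The 250 bases before the annotated start are shown for 4 genes, read from the TAIR10.1 genome on the strand of the gene. VSP1 and VSP2 are shown because the copies share sequence there. TPS04 and CYP82G1 are shown because they encode consecutive steps of 1 pathway and their means were ordered differently over the genotypes. The double mutant and xpo4-2 overlapped in TPS04, so its order there rests on means alone. Capitals mark matches, on either strand, to a G-box (CACGTG), a G-box variant (CACATG), a T/G-box (AACGTG), a W-box core (TTGAC) or a GCC-box (GCCGCC).
VSP1, chr5:8509202-8509451, minus strand: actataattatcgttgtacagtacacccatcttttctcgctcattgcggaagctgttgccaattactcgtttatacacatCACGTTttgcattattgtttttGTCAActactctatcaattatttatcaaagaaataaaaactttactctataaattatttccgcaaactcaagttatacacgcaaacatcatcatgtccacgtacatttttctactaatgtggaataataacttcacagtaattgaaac
VSP2, chr5:8502225-8502474, minus strand: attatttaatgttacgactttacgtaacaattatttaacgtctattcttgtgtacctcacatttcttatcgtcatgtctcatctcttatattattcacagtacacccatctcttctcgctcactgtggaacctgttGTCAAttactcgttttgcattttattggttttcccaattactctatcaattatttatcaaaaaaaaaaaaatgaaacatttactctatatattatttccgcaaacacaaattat
TPS04, chr1:22523385-22523634, plus strand: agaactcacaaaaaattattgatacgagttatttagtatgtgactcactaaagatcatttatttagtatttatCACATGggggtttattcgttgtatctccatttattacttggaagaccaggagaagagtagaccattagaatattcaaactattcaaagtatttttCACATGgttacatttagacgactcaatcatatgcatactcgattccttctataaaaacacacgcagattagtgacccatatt
CYP82G1, chr3:9169302-9169551, minus strand: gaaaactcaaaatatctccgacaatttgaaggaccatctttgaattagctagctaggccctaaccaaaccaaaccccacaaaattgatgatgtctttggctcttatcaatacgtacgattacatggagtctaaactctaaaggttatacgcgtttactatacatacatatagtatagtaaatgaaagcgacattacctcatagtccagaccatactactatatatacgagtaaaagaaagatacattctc

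The upstream stretches of VSP1 and VSP2 aligned over 167 bases with 79.0% identity, bases 18 to 178 of VSP1 with bases 97 to 250 of VSP2. VSP1 held a T/G-box at -170 and a W-box core at -148, both on the minus strand relative to the gene. VSP2 held a W-box core at -114 on that strand, at a different place of the alignment from the VSP1 core. TPS04 held the G-box variant at -177 and again at -82. Counting the window of 300 bases from 250 before to 50 after the start, CYP82G1 and CORI3 held none of the 5 motifs. TPS03 held a T/G-box at -222 and a W-box core at -152, and TPS10 held the G-box variant at -102 and a T/G-box at -60. No gene of the 7 held a G-box or a GCC-box in that window. Of 27443 such windows in the genome, 7.68% held a G-box, 12.9% the G-box variant, 8.95% a T/G-box, 50.5% a W-box core and 2.57% a GCC-box. The motif letters are a description and not evidence of binding.

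Library totals ran from 16922732 to 23088104 counts, so that 1 count equals 0.0433 to 0.0591 CPM, the count scaled to a common library size, before scaling. XPO4 (AT3G04490) stood at 1.46 ± 1.26 CPM in xpo4-2 cpr5, 2.90 ± 2.68 in xpo4-2, 22.98 ± 4.70 in cpr5 and 21.5 ± 1.94 in wild type (SD), so that every library labelled with xpo4-2 lay below every other library. The level of CPR5 does not check the cpr5 label. Differential abundance was tested with edgeR's quasi-likelihood test across all 21580 genes in 1 fit of the 11 libraries. The threshold was an adjusted p (Benjamini-Hochberg) under 0.05. Levels below are CPM with library scaling unless TPM, which divide by transcript length as well, are named.

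**Figure D1:**
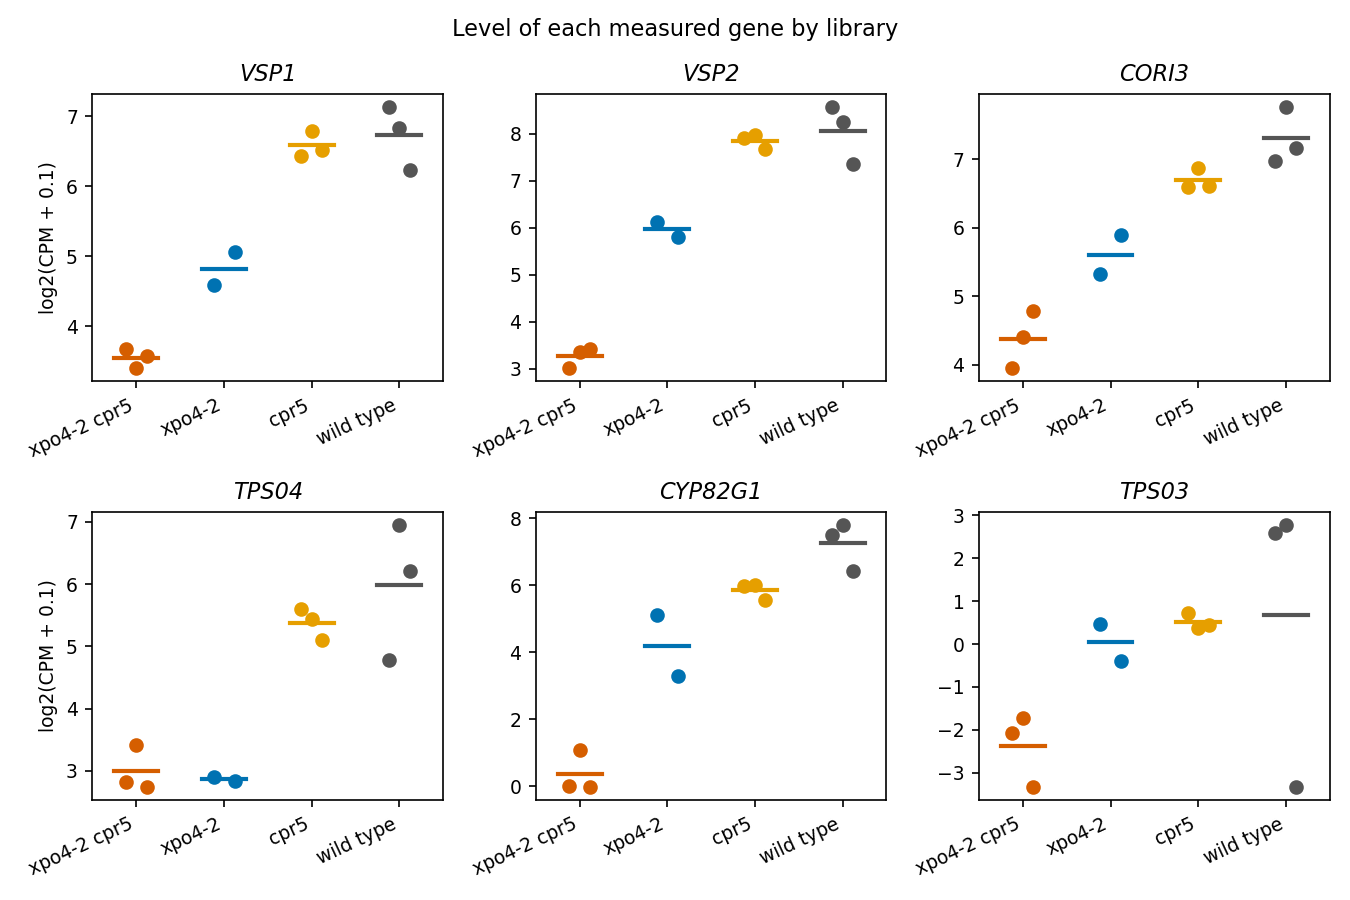
Level of the 6 genes of the count table by library, as log2(CPM + 0.1) on the vertical axis, for xpo4-2 cpr5, xpo4-2, cpr5 and wild type. Points are libraries and bars are means of the plotted values. In VSP1, VSP2, CORI3 and CYP82G1 the 3 double mutant points lie below every point of the other genotypes.

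VSP1, a storage protein with weak phosphatase activity, stood at 12.7, 10.4 and 11.8 CPM in the 3 xpo4-2 cpr5 libraries. It stood at 23.9 and 33.1 CPM in xpo4-2, at 86.5, 110.4 and 91.3 CPM in cpr5 and at 141, 114 and 75.2 CPM in wild type. The double mutant libraries were the lowest and the xpo4-2 libraries the next, with no overlap between these groups or with cpr5, while cpr5 and wild type overlapped. Its fitted fold change was 8.24-fold lower in xpo4-2 cpr5 against cpr5 (log2 fold change -3.04, SE 0.235) and 3.85-fold lower in xpo4-2 against wild type (-1.95, SE 0.259). In cpr5 against wild type the log2 fold change was -0.19 (SE 0.215), and it was 0.02 without wild-type replicate 1. In whole seedlings, fewer cells of a type and less RNA per cell cannot be told apart.

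VSP2, the more abundant copy outside the double mutant, stood at 7.97, 10.14 and 10.7 CPM in xpo4-2 cpr5. It stood at 69.8 and 56.1 CPM in xpo4-2, at 240.3, 251 and 205 CPM in cpr5 and at 383, 303 and 164 CPM in wild type. The same order held as for VSP1, with a wider gap below xpo4-2. VSP2 was 24.2-fold lower in xpo4-2 cpr5 against cpr5 (log2 fold change -4.60, SE 0.301), the 90th lowest fold change of the 21580 genes, and 4.50-fold lower in xpo4-2 against wild type (-2.17, SE 0.312). With cpr5 set against wild type, it had a log2 fold change of -0.29 (SE 0.256).

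The share of VSP1 in the counts of the VSP pair was 61.5%, 50.7% and 52.5% in xpo4-2 cpr5. The xpo4-2 libraries had 25.5% and 37.1%, the cpr5 libraries 26.5%, 30.5% and 30.8%, and the wild-type libraries 26.9%, 27.3% and 31.4%. The double mutant libraries all lay above the other 8 libraries, which overlapped one another. The pair together took 0.00233% to 0.00265% of all counts in the double mutant, 0.00850% and 0.00870% in the xpo4-2 libraries, 0.0290% to 0.0350% in cpr5 and 0.0236% to 0.0486% in wild type. The transcripts of VSP1 and VSP2 were 85.8% identical over 1330 aligned bases, with a longest shared run of 54 bases. The sources used here do not say how reads matching both copies were treated, so the split between them is uncertain.

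CORI3 stood at 15.4, 21.1 and 27.5 CPM in xpo4-2 cpr5, at 39.9 and 59.1 CPM in xpo4-2, at 96.7, 117 and 97.4 CPM in cpr5 and at 125, 218 and 143 CPM in wild type. Here all 4 genotypes were separate, and cpr5 lay below wild type in every library. CORI3 was 4.85-fold lower in xpo4-2 cpr5 against cpr5 (log2 fold change -2.28, SE 0.265), 3.27-fold lower in xpo4-2 against wild type (-1.71, SE 0.299) and 1.56-fold lower in cpr5 against wild type (-0.65, SE 0.252). Its nearest annotated copy, AT4G23590, was 79.1% identical with a longest shared run of 24 bases, shorter than that of the VSP pair.

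TPS04, which makes the precursor of the homoterpene, stood at 7.01, 10.6 and 6.62 CPM in xpo4-2 cpr5. It stood at 7.39 and 7.02 CPM in xpo4-2, at 48.2, 43.2 and 34.1 CPM in cpr5 and at 27.2, 123 and 74.1 CPM in wild type. The double mutant and xpo4-2 overlapped, and cpr5 lay within the range of the widely spread wild type. TPS04 was 5.19-fold lower in xpo4-2 cpr5 against cpr5 (log2 fold change -2.38, SE 0.441) and 10.4-fold lower in xpo4-2 against wild type (-3.38, SE 0.542). It was the 1 gene of the 6 whose mean was lower in xpo4-2 than in the double mutant.

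CYP82G1, which acts on the product of TPS04, stood at 0.910, 2.03 and 0.893 CPM in xpo4-2 cpr5, on 20, 40 and 22 counts. It stood at 34.3 and 9.59 CPM in xpo4-2, at 62.5, 63.4 and 47.0 CPM in cpr5 and at 181, 221 and 86.3 CPM in wild type. No ranges overlapped between genotypes, and the 2 xpo4-2 libraries differed by more than the 3 libraries of cpr5 did. CYP82G1 was 45.7-fold lower in xpo4-2 cpr5 against cpr5 (log2 fold change -5.51, SE 0.580), the 52nd lowest of the 21580 genes, and 129-fold lower against wild type (-7.01, SE 0.608). In xpo4-2 against wild type it was 7.44-fold lower (-2.90, SE 0.563), with a log2 fold change of -4.08 without xpo4-2 replicate 1 and -2.25 without xpo4-2 replicate 2.

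CYP82G1 over TPS04, as a ratio of TPM, was 0.190, 0.282 and 0.205 in xpo4-2 cpr5. The xpo4-2 libraries had ratios of 7.05 and 2.08, the cpr5 libraries 1.96, 2.23 and 2.08, and the wild-type libraries 10.0, 2.70 and 1.76. The P450 was below the synthase in the 3 double mutant libraries and above it in the other 8.

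**Figure D2:**
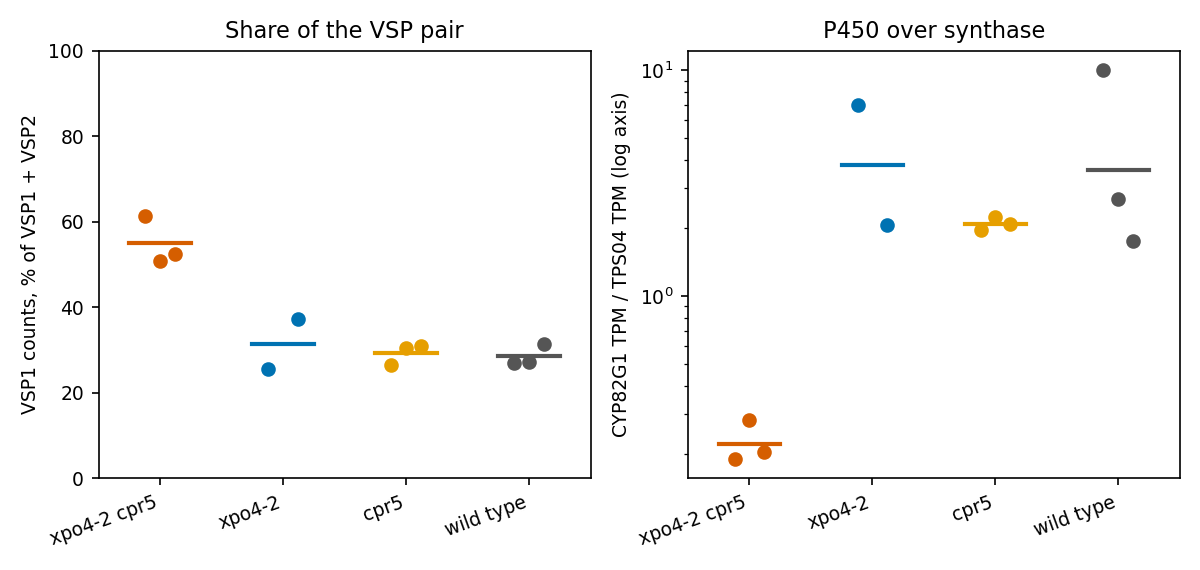
Left, VSP1 counts as a percent of VSP1 plus VSP2 counts; right, CYP82G1 TPM over TPS04 TPM on a log axis, both for xpo4-2 cpr5, xpo4-2, cpr5 and wild type. Points are libraries, and bars are means on the left and geometric means on the right. The double mutant libraries lie at 50.7% to 61.5% on the left and at 0.190 to 0.282 on the right, apart from all others.

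TPS03 was low, and near the limit of detection in the double mutant, with 3, 4 and 0 counts there. It had 23 and 15 counts in the xpo4-2 libraries, 29, 23 and 21 in cpr5 and 98, 112 and 0 in wild type. Wild-type replicate 3 therefore stood at 0 while the other 2 wild-type libraries held the highest values at 5.91 and 6.73 CPM. Its log2 fold change was -3.54 (SE 1.42) in xpo4-2 cpr5 against cpr5 and -2.11 (SE 1.39) in xpo4-2 against wild type. TPS10 was listed at 0 TPM in 9 libraries, at 0.0305 TPM in cpr5 replicate 2 and at 0.131 TPM in wild-type replicate 2. No level could be read for TPS10 in these seedlings.

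Per transcript length, VSP2 was the most abundant of the genes in wild type, at 207 ± 72.3 TPM, followed by CORI3 at 91.4 ± 25.3, VSP1 at 89.0 ± 22.0, CYP82G1 at 88.1 ± 35.1, TPS04 at 27.5 ± 17.5 and TPS03 at 2.60 ± 2.27 TPM (SD). In xpo4-2 cpr5 the order was CORI3 at 15.6 ± 4.90, VSP1 at 12.4 ± 1.69, VSP2 at 9.38 ± 1.59, TPS04 at 3.93 ± 0.859, CYP82G1 at 0.914 ± 0.409 and TPS03 at 0.0703 ± 0.0634 TPM. VSP2 ranked 12443 of 24690 genes with a TPM in xpo4-2 cpr5, 3325 of 23659 in xpo4-2, 847 of 25076 in cpr5 and 757 of 24158 in wild type. CYP82G1 ranked 20454 in xpo4-2 cpr5, 9272 in xpo4-2, 4611 in cpr5 and 1822 in wild type.

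Side by side, the median log2 fold change of the 6 genes was -3.29 in xpo4-2 cpr5 against cpr5, where the median of all genes tested was 0.01, and -2.14 in xpo4-2 against wild type, where it was 0.02. It was -0.74 in cpr5 against wild type, where the median of all genes was -0.01. In xpo4-2 cpr5 against wild type it was -4.06, against 0.03 over all genes. These comparisons share wild-type, cpr5 or double mutant libraries and are not independent of each other.

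**Figure D3:**
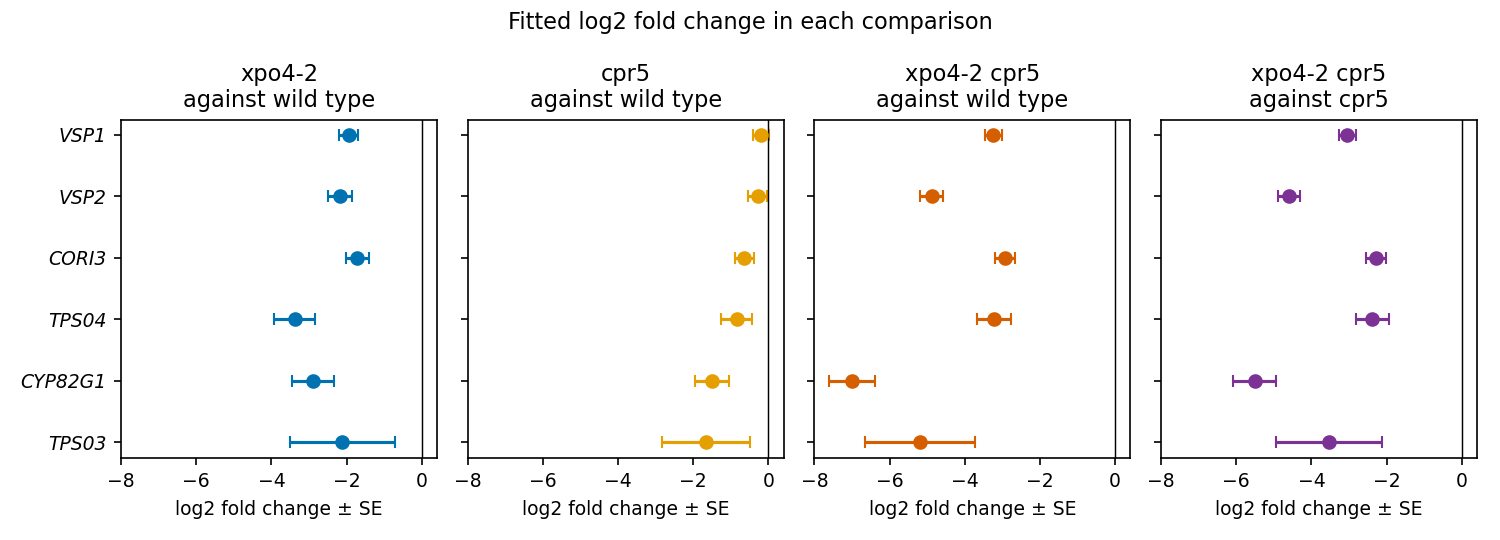
Fitted log2 fold change of the 6 genes in 4 comparisons, with bars of 1 SE, on a shared horizontal axis where 0 is no difference. All points lie below 0, near it for VSP1 and VSP2 in cpr5 against wild type, and CYP82G1 lies farthest at -7.01 in xpo4-2 cpr5 against wild type.

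In xpo4-2 cpr5 against cpr5, 5 of the 6 genes passed the test as lower, all but TPS03, beside 12.9% of all genes tested. In xpo4-2 against wild type, 5 of 6 passed, again without TPS03, beside 1.96% of all genes, and 1 of 6 passed after leaving out either xpo4-2 library. In that comparison 4 of 6 passed without wild-type replicate 2 or without cpr5 replicate 2, and 0 of 6 passed in a fit of only the 5 libraries compared, in which 1 gene in all was called as lower. In cpr5 against wild type, 0 of 6 passed with edgeR, beside 2.34%, with 2 of 6 at an unadjusted p under 0.05, 1 of 6 with DESeq2 and 0 of 6 with limma. In xpo4-2 cpr5 against wild type, 6 of 6 passed, beside 19.1%. These included TPS03, which overlapped wild type and had few counts in the double mutant. It was 5 of 6 with limma on log2(TPM + 0.1) and without xpo4-2 cpr5 replicate 1 or 3. In a fit of only the groups compared 5 of 5 passed, as TPS03 was not tested there. Because the genes were chosen on these levels, the counts describe the choice. Of all calls in xpo4-2 cpr5 against cpr5, 40.7% were higher with library scaling and 70.4% without it, and against wild type 48.7% and 69.8%. Without scaling the median of all genes moved to 0.27 against cpr5 and to 0.32 against wild type, and the 6 genes were lower under either choice.

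As to overlap, every xpo4-2 cpr5 library lay below every cpr5 library in all 6 genes, where 24% of all genes tested did so. Every xpo4-2 cpr5 library lay below every wild-type library in 5 genes, where 23.2% did so. Every xpo4-2 library lay below every wild-type library in 5 genes, where 15.4% did so, and every cpr5 library lay below every wild-type library in CORI3 and CYP82G1, where 13.5% did so. The exception for xpo4-2 and for the double mutant was TPS03, through the wild-type library at 0 counts.

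The interaction is the effect of xpo4-2 in the cpr5 background minus its effect in wild type. Its log2 value was -2.43 (SE 0.389) for VSP2, -2.62 (SE 0.735) for CYP82G1, -1.10 (SE 0.326) for VSP1, -0.57 (SE 0.378) for CORI3, -1.43 (SE 1.85) for TPS03 and 1.00 (SE 0.645) for TPS04. VSP2 was the 1 gene of the 6 that passed, beside 5.51% of all genes as lower, and DESeq2 called 3 of the 6. Without wild-type replicate 1, 2 of the 6 passed as lower, beside 7.5% of all genes, and TPS04 passed as higher. Without xpo4-2 cpr5 replicate 2, 2 of the 6 passed as lower, beside 5% of all genes. As these same levels had chosen the genes, the calls describe the choice here too. The value of CYP82G1 was -1.43 without xpo4-2 replicate 1. TPS04 was the only gene of the 6 with a positive value, at 0.44 to 1.40 over the fits that leave out 1 library.

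Within genotypes the genes varied together in part. In wild-type replicate 2 all 6 genes lay above the wild-type mean of log2 CPM, and in wild-type replicate 3, 1 of 6 did, with VSP2 at -0.70 and TPS04 at 0.24 relative to it. In cpr5 replicate 3 all 6 lay below the cpr5 mean, at -0.28 to -0.06. Wild-type replicate 1 was mixed within both branches, with VSP1 at 0.40, VSP2 at 0.52, CYP82G1 at 0.26 and TPS03 at 1.89 relative to the mean, and CORI3 at -0.33 and TPS04 at -1.205. The SD of VSP2 was 10.4% of its mean in cpr5 and 39.0% in wild type, and that of TPS04 was 17.2% in cpr5 and 64.2% in wild type.

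Transcript models were a readout that had not chosen the genes. TPS04 and TPS10 have 1 model each. The first model took 94.5% of the TPM of VSP1 and 98.0% of that of VSP2 over all libraries. For CORI3 the first model, with 7 exons, took 98.6 ± 2.49% in xpo4-2 cpr5, 90.6 ± 7.69% in xpo4-2, 89.4 ± 4.12% in cpr5 and 72.04 ± 17.7% in wild type (SD). The double mutant lay above cpr5 in every library, and an exact two-sided permutation test gave p = 0.1, the smallest that 3 against 3 libraries allow (adjusted p = 0.32 over 16 tests). The wild-type libraries ran from 51.7% to 84.0%. For CYP82G1 the model with 3 exons took 66.8%, 72.1% and 83.1% in cpr5 and 55.2%, 63.6% and 66.6% in wild type, with the same p = 0.1 (adjusted p = 0.32, exact permutation test). In xpo4-2 cpr5 its shares of 0%, 14.9% and 72.2% rest on less than 1.4 TPM of the whole gene. None of the 16 tests passed, and the design could not reach 0.05.

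Of the 16 jasmonate synthesis genes, 11 fell in xpo4-2 cpr5 against cpr5, with a median log2 fold change of -1.66. Over all genes 12.9% fell and 8.82% rose there. In xpo4-2 against wild type 1.96% fell and 0.755% rose, and in cpr5 against wild type 2.34% fell and 4.3% rose. These shares stand beside every list below. Of the synthesis, turnover and phosphatase lists 0 genes rose in xpo4-2 cpr5 against cpr5 with edgeR. There 0 were higher at an unadjusted p under 0.05, and DESeq2 and limma called 0 as higher. AOS, allene oxide synthase, averaged 75.3 ± 5.40 CPM in xpo4-2 cpr5 and 585 ± 52.8 in cpr5 (SD, log2 fold change -2.96, SE 0.288, edgeR adjusted p = 0.000157). AOC1, an allene oxide cyclase, averaged 34.8 ± 2.96 CPM in xpo4-2 cpr5 and 289 ± 45.4 in cpr5 (-3.05, SE 0.261, edgeR adjusted p = 0.000105). OPR3, the reductase that acts on its product, averaged 169 ± 58.4 CPM in xpo4-2 cpr5 and 1072 ± 179 in cpr5 (-2.67, SE 0.295, edgeR adjusted p = 0.000263). In xpo4-2 against wild type 5 of the 16 fell, and in cpr5 against wild type 0 passed with edgeR, with 6 lower at an unadjusted p under 0.05, 3 lower with DESeq2 and 0 with limma. The 5 became 0 without xpo4-2 replicate 2, 1 without xpo4-2 replicate 1, 9 without wild-type replicate 3 and 2 without wild-type replicate 2, xpo4-2 cpr5 replicate 1 or any single cpr5 library. Without wild-type replicate 3, 6 of the 16 were lower in cpr5 against wild type.

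Of 9 measured turnover genes, whose enzymes modify jasmonates or split their conjugates, 6 fell in xpo4-2 cpr5 against cpr5. The 6 became 3 without xpo4-2 cpr5 replicate 1 or 2 or cpr5 replicate 1 or 2. ILL6, an amidohydrolase, averaged 36.5 ± 4.50 CPM in xpo4-2 cpr5 and 124 ± 4.75 in cpr5 (log2 fold change -1.76, SE 0.156, edgeR adjusted p = 0.000118). CYP94B1, which oxidises jasmonoyl-isoleucine, averaged 7.97 ± 1.60 CPM in xpo4-2 cpr5 and 52.4 ± 6.05 in cpr5 (-2.71, SE 0.265, edgeR adjusted p = 0.000161). IAR3, another amidohydrolase, was 1.83-fold lower (edgeR adjusted p = 0.00605, and 0.0598 and 0.0673 with limma on log2 TPM). This list had 4 lower in cpr5 against wild type, beside 2.34% of all genes tested. In that comparison CYP94B1 was 3.87-fold and CYP94C1 2.77-fold lower (edgeR adjusted p = 0.00209 and 0.00542). The list had 8 lower in xpo4-2 against wild type, beside 1.96% of all genes. The 4 became 2 without wild-type replicate 2 or any single cpr5 library, and the 8 became 5 without xpo4-2 replicate 1 and 2 without xpo4-2 replicate 2.

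Of 19 genes of perception and transcription, 9 fell and 3 rose in xpo4-2 cpr5 against cpr5, with a median log2 fold change of -0.62. The 9 became 4 without cpr5 replicate 2, and the 3 became 1 without xpo4-2 cpr5 replicate 1 or cpr5 replicate 1. The JAZ repressor genes TIFY7 (JAZ9) and JAZ7 were 3.93-fold and 3.20-fold lower (edgeR adjusted p = 0.000569 and 0.00651), and JAZ12 was 1.54-fold lower (0.00390, and 0.111 and 0.107 with limma). The genes that rose, named after their values were seen, were COI1, the jasmonate receptor, MYC3, a transcription factor freed by JAZ loss, and PFT1, a Mediator subunit. COI1 stood at 35.9, 38.4 and 39.8 CPM in xpo4-2 cpr5, against 26.5, 21.6 and 24.3 CPM in cpr5 (log2 fold change 0.66, SE 0.135, edgeR adjusted p = 0.00686). MYC3 rose by 0.87 and PFT1 by 0.91 on the log2 scale (edgeR adjusted p = 0.0242 and 0.0175). The other MYC genes of the list, also named after their values were seen, moved in opposite directions. MYC2 stood at 59.6, 30.7 and 0.325 CPM in xpo4-2 cpr5, against 96.2, 138 and 113 CPM in cpr5. MYC4, not called as higher, stood at 21.2, 19.9 and 23.8 CPM in xpo4-2 cpr5, against 12.4, 15.8 and 17.8 CPM in cpr5. The call on MYC3 was lost without xpo4-2 cpr5 replicate 1 (0.0532) or 2 (0.0788) or cpr5 replicate 1 (0.0800) or 3 (0.0909), and that on PFT1 without xpo4-2 cpr5 replicate 1 (0.0516) or 3 (0.0538) or cpr5 replicate 1 (0.0668) or 2 (0.0681).

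Of the 19, 6 fell in cpr5 against wild type, beside 2.34% of all genes tested. However, 0 passed as lower without cpr5 replicate 1, cpr5 replicate 3 or wild-type replicate 2. It was 1 without cpr5 replicate 2 and 2 without wild-type replicate 1. TIFY10B (JAZ2) was 2.27-fold lower (edgeR adjusted p = 0.0162), and it was not called without cpr5 replicate 1 (0.0783) or 3 (0.0751) or wild-type replicate 2 (0.0534). NINJA, an adaptor of JAZ repression, was 1.70-fold lower (edgeR adjusted p = 0.0195), and it was lost without any single cpr5 library (up to 0.0867), without wild-type replicate 2 (0.0668) and with limma (0.0512 and 0.0602).

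Among 12 other jasmonate and wound outputs, 6 fell in xpo4-2 cpr5 against cpr5, and 0 rose with edgeR, 0 at an unadjusted p under 0.05, 0 with DESeq2 and 1 with limma. ESP, which steers glucosinolate breakdown, averaged 3.02 ± 1.30 CPM in xpo4-2 cpr5 and 39.0 ± 7.86 in cpr5 (log2 fold change -3.68, SE 0.356, edgeR adjusted p = 0.000156). CLH1, a wound-inducible chlorophyllase, was 4.92-fold lower and BGLU18, a beta-glucosidase, 5.55-fold lower (edgeR adjusted p = 0.00115 and 0.00116). Of the 12, 3 rose and 1 fell in cpr5 against wild type. The 3 became 1 without cpr5 replicate 2, and 0 passed as lower in 9 of the 11 fits that leave out 1 library. KTI1, a trypsin inhibitor, rose 6.87-fold to 135 ± 14.9 CPM in cpr5, against 19.6 ± 11.9 in wild type (edgeR adjusted p = 0.00343). NATA1, an ornithine acetyltransferase, rose 5.88-fold (edgeR adjusted p = 0.0149, and 0.0540 without cpr5 replicate 2). PDF1.2, a defensin of the jasmonate and ethylene branch named after its values were seen, stood at 1.55, 4.30 and 7.31 CPM in cpr5, against 0.723, 0.361 and 0.526 in wild type. Its edgeR adjusted p was 0.0244, and it was lost without cpr5 replicate 2 (0.0657) or 3 (0.0936) or wild-type replicate 2 (0.0849).

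Of the 89 genes of all lists, 26 fell and 0 rose in xpo4-2 against wild type, where 1.96% of all genes fell and 0.755% rose. At an unadjusted p under 0.05, 5 of the 89 were higher, DESeq2 called 2 as higher and limma 0. AOC1 averaged 88.2 ± 5.61 CPM in xpo4-2 and 480 ± 179 in wild type (log2 fold change -2.44, SE 0.297, edgeR adjusted p = 0.00537). CYP94B1 averaged 34.6 ± 3.71 CPM in xpo4-2 and 203 ± 78.6 in wild type (-2.55, SE 0.301, edgeR adjusted p = 0.00537). ARGAH2, an arginase, was 4.42-fold lower, and ILL6 was 2.86-fold lower (edgeR adjusted p = 0.00549 and 0.00537). AOC2, MYC3, JAZ10 and TAT3, a tyrosine aminotransferase, were 3.16-fold, 2.93-fold, 3.46-fold and 3.63-fold lower (edgeR adjusted p = 0.0146, 0.0204, 0.0222 and 0.0172), and those 4 were lost without either xpo4-2 library, with an adjusted p of up to 0.154. JAZ10 was lost without wild-type replicate 2 as well (0.0588), and AOC1 (0.0580) and ILL6 (0.0548) without xpo4-2 replicate 2. In a fit of only the 5 libraries compared, 0 of these 8 genes passed (adjusted p = 0.103 to 0.166, 0 of the 89 in all). The 26 became 8 without xpo4-2 replicate 1, 3 without xpo4-2 replicate 2, 12 without wild-type replicate 2, 16 without cpr5 replicate 2 and 17 without cpr5 replicate 3.

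Of 8 acid phosphatases related to the VSP proteins, 2 fell in xpo4-2 cpr5 against cpr5, beside 12.9% of all genes tested, with a median log2 fold change of -0.23. They were AT5G44020, at 318 ± 44.6 CPM in xpo4-2 cpr5 and 582 ± 38.3 in cpr5 (edgeR adjusted p = 0.00138), and AT2G38600, at 0.233 ± 0.117 CPM in xpo4-2 cpr5 and 1.97 ± 0.238 in cpr5 (edgeR adjusted p = 0.0151). Of 19 further terpene synthases, 10 were tested, and 1 fell in xpo4-2 cpr5 against cpr5. It was GA2, ent-kaurene synthase of gibberellin synthesis, at 4.32 ± 1.59 CPM in xpo4-2 cpr5 and 10.5 ± 0.958 in cpr5 (edgeR adjusted p = 0.0102). TPS13 rose in cpr5 to 3.09 ± 0.815 CPM, against 0.120 ± 0.208 in wild type (edgeR adjusted p = 0.0426, up to 0.119 without cpr5 replicate 3), and it was lost without any of 7 of the 11 libraries.

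Of 15 genes that supply terpene precursors, 6 fell and 1 rose in xpo4-2 cpr5 against cpr5. The 6 became 3 without xpo4-2 cpr5 replicate 1 or cpr5 replicate 2. HDS, DXR and ISPD, enzymes of the plastid pathway, were 1.98-fold, 2.03-fold and 2.03-fold lower (edgeR adjusted p = 0.000493, 0.00469 and 0.00304). HMG2, a reductase of the cytosolic pathway that was named after its values were seen, rose to 14.4, 14.6 and 13.9 CPM in xpo4-2 cpr5, against 7.31, 9.32 and 8.82 CPM in cpr5. Its edgeR adjusted p was 0.0180, and it was lost without cpr5 replicate 1 (0.0733) or xpo4-2 cpr5 replicate 1 (0.0510). Of the 15, 0 passed with edgeR in xpo4-2 against wild type, with 1 higher at an unadjusted p under 0.05, 1 higher with DESeq2 and 0 with limma.

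Over all lists, 41 of the 89 genes fell and 4 rose in xpo4-2 cpr5 against cpr5, and 1 rose without xpo4-2 cpr5 replicate 1 or without cpr5 replicate 1. In cpr5 against wild type 11 fell and 4 rose, where 2.34% of all genes fell and 4.3% rose. The 11 became 2 without cpr5 replicate 1, cpr5 replicate 3 or wild-type replicate 2, 3 without cpr5 replicate 2 and 23 without wild-type replicate 3, and the 4 became 1 without cpr5 replicate 2 and 2 without cpr5 replicate 3.

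Against wild type, 49 of the 89 list genes fell and 10 rose in xpo4-2 cpr5, where 19.1% of all genes fell and 18.1% rose. AOS averaged 75.3 ± 5.40 CPM in xpo4-2 cpr5 and 1104 ± 465 in wild type (log2 fold change -3.87, SE 0.300, edgeR adjusted p = 1.69e-05). CYP94B1 was 25.4-fold lower (edgeR adjusted p = 6.82e-06), and the MEP pathway genes HDS and DXR were 2.64-fold and 2.43-fold lower (3.12e-05 and 0.000590). The 10 that rose became 6 without xpo4-2 cpr5 replicate 2.

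**Figure D4:**
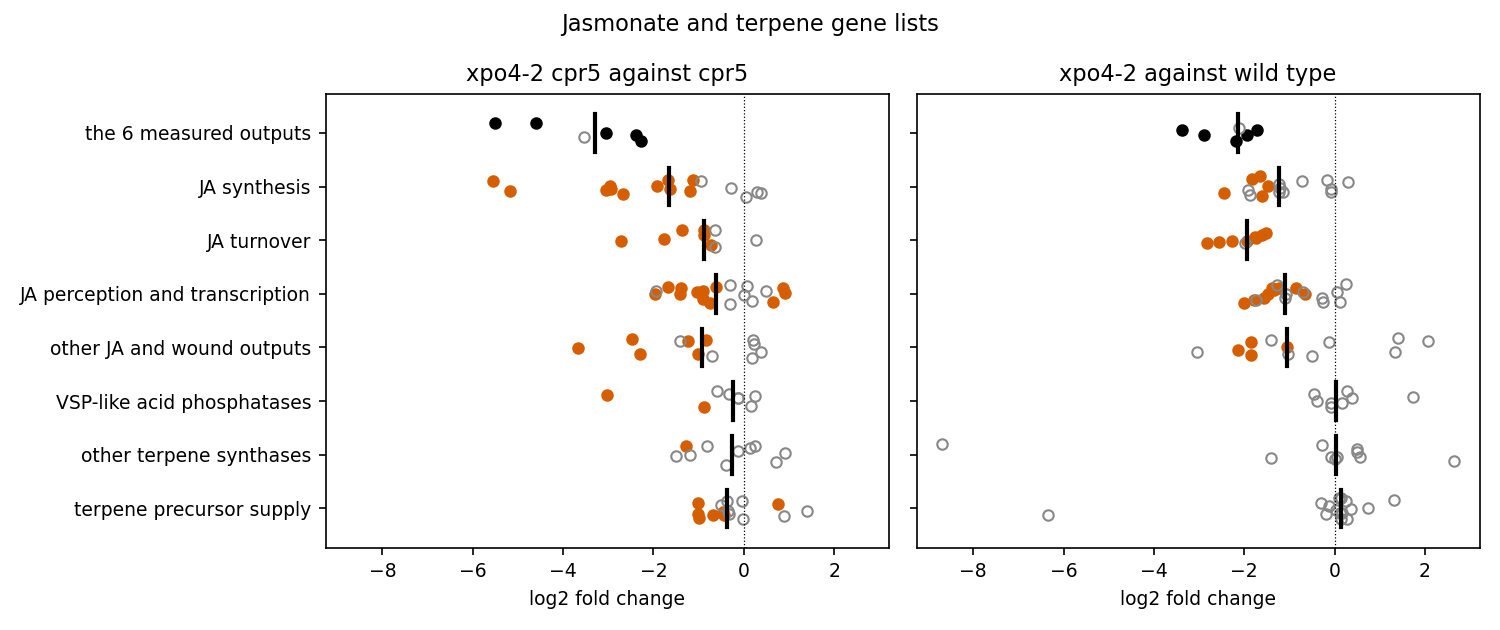
Log2 fold change of each tested gene by list in xpo4-2 cpr5 against cpr5 (left) and xpo4-2 against wild type (right). Filled points passed the edgeR test, open ones did not, vertical bars are list medians, and the vertical scatter within a row has no meaning. The synthesis row on the left holds 11 filled points with a median of -1.66, while the phosphatase, terpene synthase and precursor rows on the right hold none.

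Markers of cell types moved in the same comparison, and their part in these results was not tested. All 4 mesophyll markers fell in xpo4-2 cpr5 against cpr5. They were CAB2 and LHCB3 (chlorophyll-binding proteins), RBCS1A (a ribulose bisphosphate carboxylase small chain) and CA1 (a carbonic anhydrase). Their fall does not tell fewer mesophyll cells from less RNA of these genes per cell. Their summed level was 2803 to 4084 CPM in xpo4-2 cpr5 and 14203 to 18236 in the xpo4-2 libraries. It was 11240 to 12690 in cpr5 and 9138 to 14549 in wild type. Of 5 trichome markers 4 fell in xpo4-2 cpr5 against cpr5, with sums of 4.22 to 7.24 CPM in xpo4-2 cpr5, 14.7 to 16.9 in the xpo4-2 libraries, 15.5 to 18.8 in cpr5 and 10.6 to 21.6 in wild type. Of 6 root markers 1 rose, of 5 stomatal markers 1 rose, and of 5 vascular markers 1 fell. Over all genes tested 8.82% rose and 12.9% fell in that comparison, so single calls in such short lists say little. Of 4 seed storage genes 1 is in the count table, and it fell to 0.182 to 0.487 CPM in xpo4-2 cpr5, against 7.82 to 8.16 in cpr5, with 7.46 to 18.8 in xpo4-2 and 38.1 to 67.8 in wild type. No marker in the count table was at 0 in every library. In xpo4-2 against wild type the median log2 fold change was 0.84 for the root, 0.46 for the vascular and 0.44 for the mesophyll markers. It was -0.16 for the stomatal and -0.20 for the trichome markers, and no marker of these lists was called there. The seed storage gene fell in that comparison and in cpr5 against wild type (log2 fold change -1.99 and -2.70). In xpo4-2 cpr5 against wild type all 4 mesophyll markers, 2 of 5 trichome markers and the seed storage gene fell. There 2 of 6 root markers rose, with a list median log2 fold change of 1.73, where 19.1% of all genes fell and 18.1% rose.

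The genes nearest to the mean profile of each branch were found by the root mean square difference of mean-centred log2 CPM over the 11 libraries. A gene near that mean need not be near any single output gene. Nearest to the mean profile of VSP1, VSP2 and CORI3 were AOC1 at 0.239, FLR1 at 0.372, AT1G64360 at 0.380, AT1G67865 at 0.393 and AOS at 0.397, where the median of all genes was 1.59. Nearest to the profile of CYP82G1, TPS03 and TPS04 were LOX3, a lipoxygenase of jasmonate synthesis, at 0.455, NUDT8 at 0.515, AT5G08135 at 0.544, AOC1 at 0.549 and AOS at 0.573, where the median was 1.90. The output genes themselves lay at 0.241 (VSP1), 0.557 (VSP2) and 0.445 (CORI3) from the first profile. From the second, CYP82G1 lay at 1.06, TPS03 at 1.12 and TPS04 at 1.04, farther than the 5 genes named. AOC1 and AOS were in both sets of 5. AOC1 averaged 34.8 CPM in xpo4-2 cpr5, 88.2 in xpo4-2, 289 in cpr5 and 480 in wild type, the order of VSP1 and VSP2.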

How the data were processed

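Strand-specific mRNA libraries of 11 seedling samples were analysed. The deposited counts are whole reads per gene, and the authors' second table gives TPM (transcript abundance per length and library size) for 71164 transcript models, credited to kallisto by its deposited name. The submitters' processing notes name HISAT2 2.0.4, HTSeq 0.6.1p1 and TAIR10, without their roles. The strand setting and the handling of multiply matching reads are not given in the sources used here. The labels' design text speaks of triplicates, and 2 xpo4-2 libraries were analysed here.

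Counts were scaled by TMM, filtered with filterByExpr (21580 of 22160 genes kept) and tested with edgeR 4.0.16 quasi-likelihood fits of all 4 genotypes in R 4.3.3, with Benjamini-Hochberg adjustment. DESeq2 1.42.0, and limma 3.58.1 on log2(TPM + 0.5) and log2(TPM + 0.1), were alternatives, beside other scalings and filters, a replicate block, leaving out each library and fitting only the groups compared. The edgeR test was also run on counts simulated from this same fit, with changes planted in the xpo4-2 cpr5 group alone. It was read in xpo4-2 cpr5 against cpr5 alone and was required only to give most recovered changes the right direction. That run does not check the comparisons that use the 2 xpo4-2 libraries. TPM were summed over models per gene, and shares of models were compared by exact permutation tests. Copies were aligned with blastn 2.17.0, and sequences were read from the TAIR10.1 genome of RefSeq.

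The genes and lists were chosen with earlier results of these data known. All 7 output genes were named, with up to 3 called genes of each list by smallest adjusted p in xpo4-2 cpr5 against cpr5 and up to 2 in each other comparison. With 1 count worth 0.0433 to 0.0591 CPM, levels under 3 counts were read as not detectable.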

Additional observations from a re-analysis of the deposited data

Results flagged for a closer look

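In 12 of the 89 list genes the effect of xpo4-2 differed between the cpr5 and the wild-type background by the interaction term of the edgeR fit. Among the 89, 3 were called as higher and 9 as lower, where 3.2% of all genes tested were higher and 5.51% lower. Of the 12 genes, 9 are named in other comparisons. Each value is the log2 effect in cpr5 minus that in wild type. MYC3 had 2.42 and ESP -3.19, and both passed in 19 of 19 alternatives. ISPD had -1.38 and AT5G44020 had -1.16, and both passed in 18 of 19. AT2G38600, at few counts, had -4.77 and passed in 16 of 19. DXR had -1.31 and passed in 15 of 19. ARGAH2 had 1.31 and passed in 11 of 19, with an adjusted p of up to 0.151. AOS had -1.47 and passed in 5 of 19, with an adjusted p of up to 0.184. HDS had -0.69 and passed in 4 of 19, with an adjusted p of up to 0.376. The other 3, named after their values were seen, were JMT at -5.11, JRG21 at 2.19 and CLA1 at -1.26, with edgeR adjusted p = 0.0290, 0.0146 and 0.0327. Results under the alternatives are not given for these 3. JMT was near the limit of detection in xpo4-2 cpr5, at 0.0910, 0 and 0 CPM, against 0.932 to 1.99 CPM in cpr5. The size of its value is therefore uncertain.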

How the results depend on the processing

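The log2 fold changes of the 6 output genes were negative under every alternative run in xpo4-2 cpr5 against cpr5, xpo4-2 cpr5 against wild type and xpo4-2 against wild type. The causes of the moves below were not tested. With limma on log2(TPM + 0.5) and log2(TPM + 0.1), in that order, xpo4-2 cpr5 against cpr5 gave VSP1 -2.65 and -2.69, VSP2 -4.20 and -4.26, TPS04 -1.91 and -2.02 and TPS03 -1.23 and -2.53, and the first gave CORI3 -1.95 and CYP82G1 -4.62. Without scaling VSP1 was -2.78 and VSP2 -4.33. Against wild type limma gave VSP1 -2.77 and -2.81 and VSP2 -4.34 and -4.40, and the first gave CYP82G1 -5.92 and TPS03 -1.90. In the interaction it gave VSP1 -0.75 and -0.77, and the first gave CYP82G1 -1.66.

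Counts of genes called as higher and lower were 1904 and 2778 in xpo4-2 cpr5 against cpr5, with 4247 and 1787 without scaling, 5337 and 1609 or 4833 and 1545 with limma, and 3127 higher with only these groups. In xpo4-2 cpr5 against wild type they were 3900 and 4111, with 6495 higher without scaling and 8171 and 2486 or 7883 and 2403 with limma. In xpo4-2 against wild type they were 163 and 423, with 628 and 1216 with DESeq2, 90 and 274 or 94 and 248 with limma, and 0 and 1 with only these groups. In cpr5 against wild type they were 928 and 505, with 1520 and 1092 with DESeq2 and 304 or 228 lower with limma. In the interaction they were 691 and 1189, with 1354 and 784 without scaling, 1345 higher with DESeq2 and 1342 and 584 or 1070 and 498 with limma.

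Over all lists, xpo4-2 cpr5 against cpr5 had 25 or 26 lower with limma, and against wild type 6 higher with only these groups. The list counts in xpo4-2 against wild type were 2 higher with DESeq2 and 0 lower with only these groups. In cpr5 against wild type 23 were lower with DESeq2 and 5 with limma on log2(TPM + 0.1). In the interaction 9 were higher without scaling, 11 with DESeq2 and 6 with either limma fit, and 4 were lower with limma on log2(TPM + 0.1).

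Leaving out 1 library at a time gave 852 to 2523 genes higher and 1819 to 3107 lower in xpo4-2 cpr5 against cpr5, 12 to 225 and 44 to 545 in xpo4-2 against wild type, 357 to 1274 and 98 to 826 in cpr5 against wild type, and 211 to 1122 and 416 to 1614 in the interaction. Over all lists it gave 1 to 4 higher in xpo4-2 cpr5 against cpr5, 6 to 10 higher in xpo4-2 cpr5 against wild type, 0 to 2 higher and 3 to 33 lower in xpo4-2 against wild type, 1 to 5 and 2 to 23 in cpr5 against wild type, and 2 to 9 and 3 to 9 in the interaction. CYP82G1 ran from -4.08 to -2.25 in xpo4-2 against wild type and from -3.27 to -1.43 in the interaction, and TPS03 from -4.22 to -2.94 in xpo4-2 cpr5 against cpr5.

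The deviations of libraries with the same replicate number had r of -0.088 to 0.214. Those with different numbers had r of -0.214 to 0.193. Deviations from a genotype mean constrain each other, so this check cannot decide whether the numbers pair libraries. A fit with the replicate block gave TPS03 -4.22 in xpo4-2 cpr5 against cpr5, 444 genes higher in the interaction, and 5 list genes higher and 5 lower there.

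The interaction was not run with only the groups compared, since it uses all 4, and TPS03 was not tested in that fit of xpo4-2 cpr5 against wild type. With 2 xpo4-2 libraries, leaving out either leaves 1, which is then assumed to vary like the other genotypes. Depth limits TPS03, at 0 to 4 counts in the double mutant, and the model shares of CYP82G1 there.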
